A study of Mus musculus with 20 samples.

Results

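The late phase of the response of B3 cells to IKZF1 was measured as the step from 12 and 15 h to 21 and 24 h of induction. Its members were the 4 libraries of 21 and 24 h and the 4 libraries of 12 and 15 h, chosen by their time labels, so 8 of the 20 libraries in the series. B3 is a mouse pre-B cell line that carries, after retroviral transduction, Ikaros fused to ERt2, a ligand-binding domain that holds the fusion protein out of the nucleus until 4-hydroxytamoxifen (4-OHT) is added. All 8 libraries came from transduced cells with 500 nM 4-OHT, 2 replicates at each time point, and RNA bound to chromatin was sequenced, so that introns count and the values follow transcription in progress more closely than the mRNA pool. At 12 and 15 h the comparison group had thus already been induced for hours, and cells given 4-OHT without the fusion protein were not analysed here.

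Ikaros (Ikzf1) is a zinc finger DNA-binding protein of lymphocytes that recruits corepressors such as NuRD, and loss of its function is a feature of B cell leukemia. At the pre-B stage, cells first divide in response to the IL-7 receptor and the pre-B cell receptor, and then leave the cell cycle and differentiate. Genes for DNA replication are transcribed mainly around the entry into S phase, under E2F proteins, and genes for mitosis mainly in G2, under a promoter element called the CHR. A fall of both groups in a bulk sample can mean fewer cells in these phases or less transcription per cell, which cannot be told apart.

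The 8 libraries held 33296158 to 42354512 counts. Chi-square per degree of freedom between the replicates of a time point, which is 1 for counting noise alone, was 9.95 at 12 h, 1.77 at 15 h, 4.78 at 21 h and 2.58 at 24 h, against 1.26 to 1.63 from 0 to 6 h, and 14.9 at 18 h, whose libraries enter only the 3 h intervals and the position at 18 h. Of the 4 time points compared the 12 h pair was the least alike, and counts are also given without it where that moved them by over 1.5 times or where they lead an account. Leaving it out also shortens the step, since 15 h alone then stands for the earlier window. Over all 16601 genes tested 512 were then higher and 708 lower, against 756 and 1067 with all libraries. Nothing in the labels says that replicates were separate cultures, so p-values measure only the spread between these libraries, which may be technical. Among pre-B markers, Pax5 (59859 to 143749 counts), Ebf1 (205074 to 299159), Cd79a (1357 to 2468), Cd79b (1758 to 2701), Blnk, Il7r and Vpreb3 were above 100 counts in every library. The surrogate light chain genes Igll1 (33 to 59 counts), Vpreb1 (7 to 22) and Vpreb2 (2 to 11) were low, and the recombinase genes Rag1 and Rag2 had 0 counts in all 8 libraries, which allows up to 3 counts each. Igll1 and Vpreb1 had fallen before the step, with log2 changes of -6.81 and -4.96 from 0 to 12 h. The paper places both among its fast-repressed genes. Of the markers of other cell types, 6 of 14 T cell, 9 of 14 myeloid, 5 of 10 erythroid and 9 of 10 stromal genes were never above 3 counts, among them Cd3e (at most 1), Lyz2 (3), Hba-a1 (1) and Col1a1 (0). Others were present in every library, among them the signalling genes Zap70 (468 to 777 counts), Cd247 (472 to 3292) and Lck (52 to 137) of the T cell list, Acta2 (121 to 209) of the stromal list, and Xbp1 (587 to 1069), Jchain (170 to 358) and Irf4 (56 to 216) of 7 plasma cell markers, whose summed share was 0.00346% to 0.00359% of counts in the earlier and 0.00281% to 0.00294% in the later window. The summed share of 14 T cell markers, 7 of them tested and mostly Cd247, was 0.00317% to 0.00518% of counts at 12 and 15 h and 0.00826% to 0.0105% at 21 and 24 h, and that of 10 erythroid markers, 3 tested and mostly the transferrin receptor gene Tfrc of dividing cells, 0.0348% to 0.0436% and 0.0846% to 0.104%. The part of these lists in the results was not tested.

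The 2 scalings of the libraries gave different balances of rises and falls, and in the same libraries a growing share of counts went to a small number of genes. TMM factors, which edgeR estimates from the bulk of genes to correct for library composition, were 1.04 and 1.05 (12 h), 1.02 and 1.01 (15 h), 0.886 and 0.896 (21 h), and 0.881 and 0.870 (24 h). The mean fell from 1.03 ± 0.0205 to 0.883 ± 0.0106 (SD, n = 4), with no overlap (exact permutation test, two-sided, p = 0.0286, the smallest that 4 against 4 allows, adjusted p = 0.0364 over 42 measures). The 4 libraries of a window are pairs from 2 time points, so here and below an SD over a window includes the change between its time points. Any steady drift over time also gives the smallest p. Most of the 42 measures had it. The 100 genes with most counts took 19.6% to 21.4% of counts at 12 and 15 h and 24.5% to 25.7% at 21 and 24 h, and the 10 with most counts took 7.57% ± 0.362 and 9.01% ± 0.452 (both with the same p). Between scaling by factors and by library totals, log2 fold changes moved by -0.219 at the median, and over all 16601 genes tested the median was -0.0174 with factors and -0.236 with totals.

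**Figure D1:**
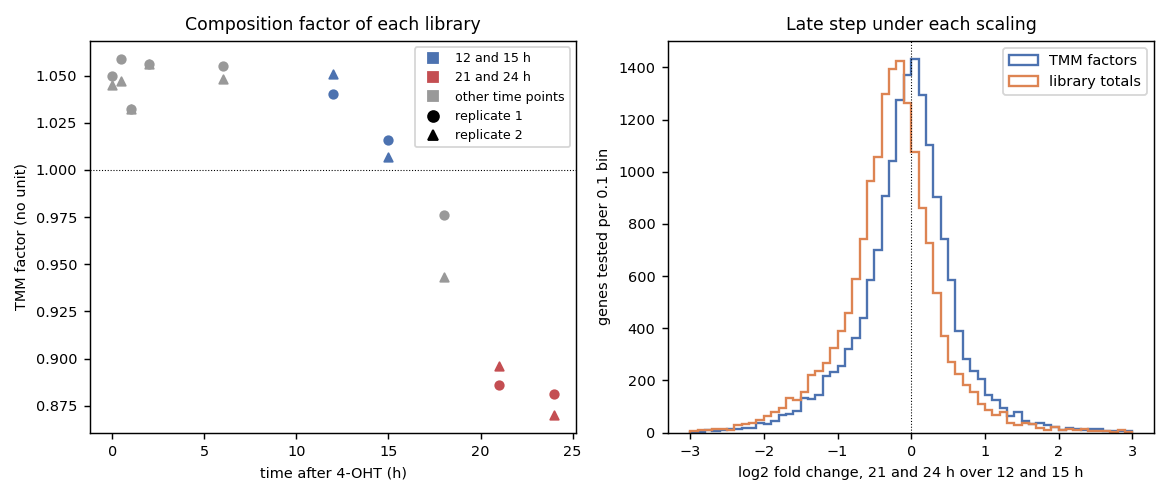
Left, TMM factor of each of the 20 libraries (vertical axis, no unit) against hours of 4-OHT, with 12 and 15 h in blue, 21 and 24 h in red and the other time points in grey. Right, number of genes per 0.1 bin of the log2 fold change of the late step under each scaling, where the totals curve lies to the left of the factor curve by -0.219; values beyond 3 in either direction are not drawn.

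With composition factors, 756 genes (4.55% of those tested) were higher and 1067 (6.43%) lower at 21 and 24 h (edgeR quasi-likelihood test, adjusted p under 0.01 and fold change above 2). With library totals, 495 (2.98%) were higher and 1640 (9.88%) lower, so that the share of rises among the calls was 41.5% with factors and 23.2% with totals. All 495 rises with totals were rises with factors and all 1067 falls with factors were falls with totals, 261 rises were called with factors only and 573 falls with totals only, and 0 genes were called in opposite directions. The change of scaling moves all genes by nearly the same log2 amount, so this nesting is largely built in. The later libraries lay above all 4 earlier ones for 23.5% of genes and below them for 24.0% with factors, and for 12.7% and 39.5% with totals. The shift between scalings gave opposite signs to 142 genes that passed the adjusted p threshold with both. The most abundant of these were Pde4d, a cAMP phosphodiesterase, at 0.11 with factors and -0.11 with totals, Exoc4, a subunit of the exocyst (0.14 and -0.08), Dennd1a (0.10 and -0.12), Rapgef6 (0.12 and -0.10), Map2k5, a MAP kinase kinase (0.12 and -0.10), and Dnajc1 (0.12 and -0.10). The values that follow are log2 fold changes and CPM with factors unless totals are named, and every gene named as higher or lower passed both scalings unless stated. The list counts below stand against 4.55% higher and 6.43% lower of all genes with factors.

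DNA replication genes fell together. Of 42 tested, 31 were lower and 1 was higher, with a median log2 fold change of -1.37 against -0.0174 over all genes, and 34 were lower with totals (median -1.59). Over all genes 6.43% were lower and 4.55% higher with factors, and 9.88% were lower with totals. The list took 0.374% to 0.508% of counts at 12 and 15 h and 0.213% to 0.237% at 21 and 24 h. Without the 12 h libraries 27 were lower, and with any single library left out 30 to 33. The promoters of Cdc6, which loads the replicative helicase at origins, and of E2f2, an E2F transcription factor, are shown because both genes fell and both hold a sequence to which E2F proteins bind (RefSeq, GRCm38.p6, chr11:98907901-98908200, plus strand, and chr4:136172024-136172323, plus strand, each 250 bases before to 50 after an annotated start, the latter 1 of 2 starts of the gene). Capitals mark matches to an E2F or CCAAT sequence on either strand.
Cdc6: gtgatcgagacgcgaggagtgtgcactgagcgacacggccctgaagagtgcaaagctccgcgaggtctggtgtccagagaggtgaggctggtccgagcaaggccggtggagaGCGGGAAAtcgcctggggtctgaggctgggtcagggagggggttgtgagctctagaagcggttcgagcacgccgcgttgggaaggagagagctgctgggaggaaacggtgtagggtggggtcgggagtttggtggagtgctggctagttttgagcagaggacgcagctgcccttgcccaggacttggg
E2f2: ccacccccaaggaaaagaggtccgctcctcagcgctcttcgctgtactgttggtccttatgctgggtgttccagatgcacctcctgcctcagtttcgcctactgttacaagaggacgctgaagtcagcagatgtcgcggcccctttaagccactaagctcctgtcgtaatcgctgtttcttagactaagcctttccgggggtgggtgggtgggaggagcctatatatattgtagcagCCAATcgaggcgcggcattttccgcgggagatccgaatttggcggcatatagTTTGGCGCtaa

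Cdc6 (ENSMUSG00000017499, chromosome 11, 98907801 to 98923940) stood at 37.3 and 35.4 CPM (12 h), 22.4 and 24.3 (15 h), 6.65 and 5.97 (21 h), and 5.25 and 4.37 (24 h). The earlier window averaged 29.9 ± 7.56 CPM and the later one 5.56 ± 0.978 (SD, n = 4), a 5.31-fold fall (log2 -2.41, SE 0.0578, edgeR adjusted p = 3.81e-19), and the windows did not overlap. E2f2 was at 129 and 149 CPM (12 h), 113 and 109 (15 h), 39.6 and 42.3 (21 h), and 30.8 and 30.5 (24 h), a log2 fold change of -1.81 (SE 0.0578, edgeR adjusted p = 4.96e-17). For both genes the 24 h libraries lay below the 21 h libraries. Ccne1, which encodes cyclin E1 and drives the entry into S phase, went from 7.54 to 11.8 CPM in the earlier libraries to 0.954 to 2.66 in the later ones (log2 -2.41). Rrm2, the regulated subunit of ribonucleotide reductase, was at 44.4 and 40.4 CPM (12 h), 28.3 and 30.2 (15 h), 10.6 and 10.3 (21 h), and 5.96 and 5.86 (24 h) (log2 -2.17, SE 0.05). Genes of the replication fork were lower too. Lig1, the ligase that joins Okazaki fragments, fell from 117 ± 23.0 to 29.1 ± 7.54 CPM (log2 -2.02, SE 0.0295), and Mcm5, a subunit of the helicase, from 110 ± 22.2 to 33.2 ± 5.97 (log2 -1.73, SE 0.0299). Among the helicase subunits, Mcm2 (-1.86), Mcm6 (-1.48) and Mcm3 (-1.08) were lower, while Mcm4 (-0.93) and Mcm7 (-0.60) stayed within 2-fold with factors. Tyms, thymidylate synthase, went from 22.2 ± 4.93 to 5.09 ± 1.21 CPM (log2 -2.12).

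The single replication gene that rose was Orc1, the largest subunit of the origin recognition complex. Orc1 was at 25.3 and 24.4 CPM (12 h), 19.8 and 19.5 (15 h), 24.7 and 23.9 (18 h), 49.4 and 48.7 (21 h), and 63.7 and 61.4 (24 h) (log2 1.33, SE 0.0396, edgeR adjusted p = 1.6e-17). It stayed between 19.5 and 25.3 CPM from 12 to 18 h, below its 37.5 and 34.5 CPM at 0 h, and was higher in all 4 later libraries. Orc1 is overlapped by 1 annotated gene on the other strand, and whether the counting used strand is not given in the sources used here. Prim2, a primase subunit, was at 0.65 and Rfc1, the large clamp loader subunit, at 0.01, neither of them called.

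Mitosis genes fell as widely. Of 43 tested, 37 were lower and 0 higher, with a median of -1.3, and 38 were lower with totals (median -1.52). The shares of all genes that were lower were 6.43% with factors and 9.88% with totals. All 43 had the 4 later libraries below the 4 earlier ones, against 24.0% of all genes, and their share of counts went from 0.443% to 0.591% down to 0.152% to 0.224%. Without the 12 h libraries 32 were lower, and with any single library left out 36 or 37. The promoters of Hmmr, which encodes a spindle protein, and of Cdk1, the kinase that starts mitosis, are shown because each holds the CHR sequence beside CCAAT sequences (chr11:40733388-40733687, minus strand, and chr10:69352863-69353162, minus strand, same table and build). Capitals mark CHR, CCAAT and E2F matches on either strand.
Hmmr: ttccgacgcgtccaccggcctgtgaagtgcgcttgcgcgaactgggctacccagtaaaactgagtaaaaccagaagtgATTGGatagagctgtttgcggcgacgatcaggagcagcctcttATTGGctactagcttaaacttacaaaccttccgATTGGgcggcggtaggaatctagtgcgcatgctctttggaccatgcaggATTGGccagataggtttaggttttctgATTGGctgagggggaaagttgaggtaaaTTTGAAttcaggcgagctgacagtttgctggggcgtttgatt
Cdk1: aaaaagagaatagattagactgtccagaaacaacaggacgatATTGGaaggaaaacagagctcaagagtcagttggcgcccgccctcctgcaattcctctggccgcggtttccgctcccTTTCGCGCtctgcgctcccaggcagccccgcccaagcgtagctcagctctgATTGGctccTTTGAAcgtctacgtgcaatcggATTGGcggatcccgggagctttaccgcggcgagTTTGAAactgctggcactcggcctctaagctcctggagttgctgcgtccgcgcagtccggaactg

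Cdk1 (ENSMUSG00000019942, chromosome 10, 69335146 to 69352938) was at 105 and 98.8 CPM (12 h), 76.1 and 78.6 (15 h), 38.6 and 39.2 (21 h), and 25.7 and 26.6 (24 h), a 2.78-fold fall (log2 -1.48, SE 0.0312, edgeR adjusted p = 5.73e-20). Hmmr went from 116 and 122 CPM (12 h) and 84.6 and 86.7 (15 h) to 46.4 and 45.3 (21 h) and 28.4 and 27.9 (24 h) (log2 -1.49, SE 0.0298). Levels at 24 h were below those at 21 h for both genes. Mki67, the proliferation marker Ki-67, fell from 726 ± 162 to 267 ± 76.9 CPM (log2 -1.46, SE 0.0418), and Top2a, topoisomerase II alpha, from 378 ± 47.7 to 143 ± 34.7 (log2 -1.42, SE 0.0270). The regulators of this program were among the lower genes, Mybl2 (B-Myb) at -1.81 and Foxm1 at -1.56, as was Birc5, survivin, at -1.79 (SE 0.0635). Several stages were represented by the mitotic kinases Aurkb (-1.46) and Plk1 (-1.25), the kinetochore genes Nuf2 (-1.43) and Bub1 (-1.40), the motor Kif11 (-1.40), and Cdc20 (-1.23), an activator of the anaphase-promoting complex. The 6 not called with factors were Kif22, Ccnb1, Ndc80, Cdc25b, Kif20b and Cenpa, at -0.92 to -0.59.

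The promoters of the lists were searched for sequences to which known regulators bind. Of all 32851 promoters of this length in the RefSeq table, 2.26% held an E2F sequence (TTTCCCGC, TTTGGCGC, TTTCGCGC or TTTGCCGC on either strand), 17.9% the CHR (TTTGAA) and 37.4% a CCAAT sequence, and none of these sequences contains another. The 34 replication genes found in the table have 42 promoters, of which 33.3% held an E2F sequence, 14.3% the CHR and 64.3% CCAAT. The 36 mitosis genes found have 37 promoters, of which 5.41% held an E2F sequence, 70.3% the CHR and 73.0% CCAAT. For ribosome biogenesis the shares were 5.77%, 7.69% and 28.8% over 52 promoters, and an E-box to which MYC binds (CACGTG) stood in 15.4% of them, 16.7% of the replication, 8.11% of the mitosis and 16.7% of the nucleotide synthesis promoters, against 7.15% of all promoters. The core of the Ikaros site (TGGGAA) stood in 35.7% of the replication, 24.3% of the mitosis and 25.6% of all promoters. Over tested genes in the table, 13.8% of the 477 with an E2F sequence were lower in the late step against 6.32% of those without, and 9.75% of the 1765 with the CHR against 6.06%. The values were 7.68% and 5.86% for CCAAT, 6.74% and 6.62% for the E-box, and 6.53% and 6.68% for the Ikaros core. All promoters include those of genes not tested here, so they are not a like background for the lists. Of the 11241 tested genes in the table, counted once over all their starts, 477 held an E2F sequence, 1765 the CHR and 1232 an E-box. The motifs were chosen with the results known, a match is a string of letters and not a measured binding site, and these shares were not tested.

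**Figure D2:**
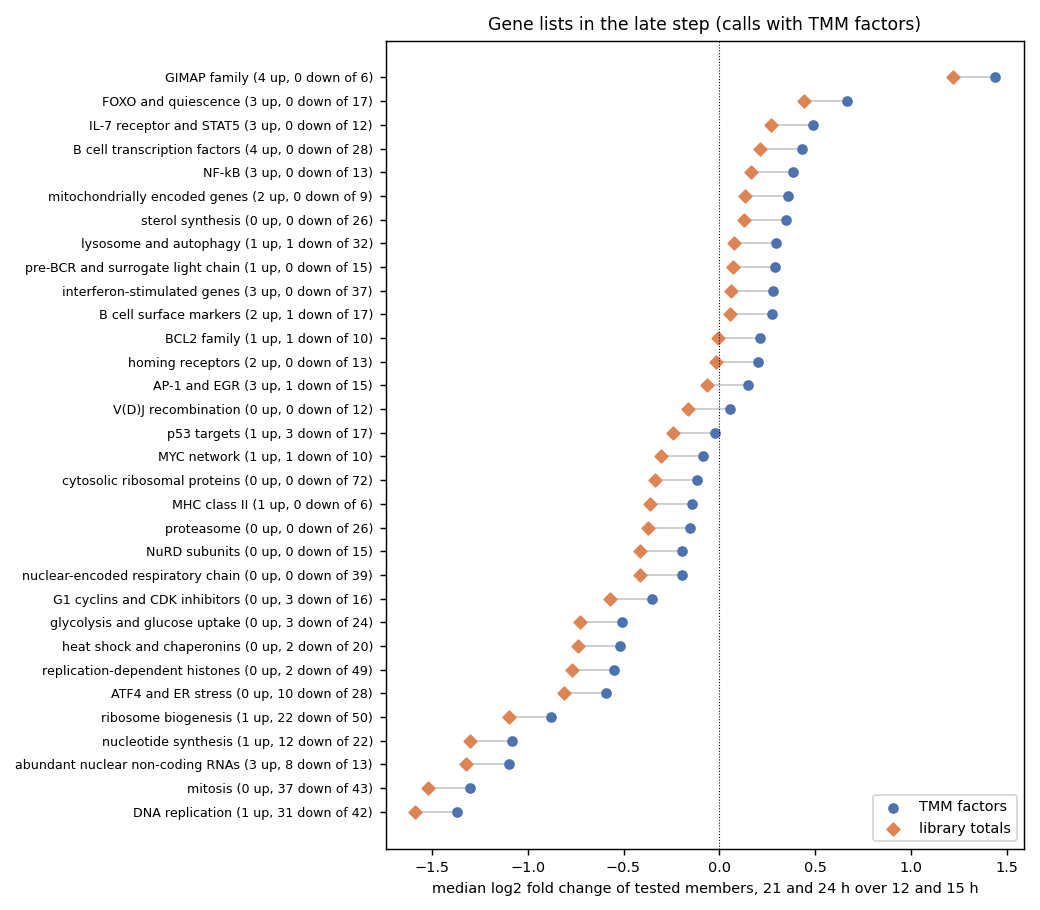
Median log2 fold change of the late step (horizontal axis) for each gene list, with TMM factors as blue circles and library totals as orange diamonds, and in brackets the members called with factors. DNA replication (31 of 42 lower) and mitosis (37 of 43 lower) lie lowest, the GIMAP family (4 of 6 higher) highest, and every list lies further left with totals.

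Other genes of growth fell with them. Of 50 ribosome biogenesis genes, 22 were lower and 1 higher with a median of -0.88, and with totals 27 were lower. Polr1b, the second largest subunit of RNA polymerase I, was at 28.9 and 26.3 CPM (12 h), 17.9 and 17.4 (15 h), 6.00 and 6.35 (21 h), and 5.13 and 5.10 (24 h) (log2 -1.97, SE 0.0522, edgeR adjusted p = 2.03e-18). Rrp1b (-1.76), the nucleolar proteins Nolc1 (-1.64) and Nop56 (-1.60), nucleolin (Ncl, -1.12) and nucleophosmin (Npm1, -1.33) were also lower. Without the 12 h libraries 12 were lower, in a shorter step in which the count of lower genes over all genes also went from 1067 to 708. The member that rose was Wdr12, of the PeBoW complex, from 63.7 ± 4.22 to 132 ± 20.5 CPM (log2 1.04), which was not called with totals. Cytosolic ribosomal protein genes differed from this, with 0 of 72 called in either direction and a median of -0.12 (1 lower with totals, median -0.34).

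Myc, which drives ribosome and nucleotide genes, fell from 22.3 and 28.2 CPM (12 h) and 18.0 and 19 (15 h) to 6.14 and 6.59 (21 h) and 5.55 and 4.40 (24 h). The change was 3.86-fold (log2 -1.95, SE 0.0883, edgeR adjusted p = 2.26e-14), with no overlap of the windows. Its antagonist Mxi1 rose with factors (51.6 ± 8.23 to 107 ± 10.9 CPM, log2 1.06) and was at 0.84 with totals. Max, the shared partner, was at 0.23 and was not called, and Myc and Mxi1 were the 2 of 10 MYC network genes called. Without the 12 h libraries Mxi1 was at 0.88 and no longer called. Nucleotide synthesis genes were lower in 12 of 22 cases and higher in 1, with a median of -1.08 (14 lower with totals, 7 lower and 0 higher without the 12 h libraries). Ctps, a CTP synthase, went from 38.1 ± 10.5 to 8.95 ± 1.68 CPM (log2 -2.06), while its paralog Ctps2 went from 139 ± 33.4 to 316 ± 20.6 (log2 1.22, called with factors only). Mthfd1 and Umps, of the folate cycle and of pyrimidine synthesis, were both at -1.76. Of 28 genes of amino acid supply and ER stress, 10 were lower and 0 higher (median -0.59, 6 lower without the 12 h libraries), led by Phgdh, the entry enzyme of serine synthesis (26.5 ± 7.52 to 6.62 ± 0.922 CPM, log2 -1.96), and including Hspa5, the ER chaperone BiP (-1.28).

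Small nucleolar RNA host genes and nuclear non-coding RNAs moved in both directions, with 8 of 13 lower and 3 higher (5 and 2 without the 12 h libraries). Gas5, a growth arrest transcript that hosts snoRNAs, was at 184 and 147 CPM (12 h), 102 and 101 (15 h), 60.2 and 49.5 (21 h), and 38.4 and 39.3 (24 h) (log2 -1.49, SE 0.0668). Snhg6 (-1.81), Snhg1 (-1.73), Snhg12 (-1.63) and Mir17hg, the host of a MYC-activated microRNA cluster (-1.71), were lower too. Gas5 and Snhg1 share their strand with 10 and 8 annotated small genes inside them, among which the counting could have split reads. Malat1, a long nuclear RNA, rose from 4770 and 4500 CPM (12 h) and 6380 and 6350 (15 h) to 11600 and 11400 (21 h) and 14200 and 13800 (24 h) (log2 1.22, SE 0.0216, edgeR adjusted p = 4.11e-21).

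The 12 largest falls by the naming rule included Ccne1, Cdc6, Rrm2 and Tyms, given above. Dctd, which makes dUMP for thymidine synthesis, fell most, from 28.5 and 31.5 CPM (12 h) and 16.0 and 16.9 (15 h) to 3.46 and 3.04 (21 h) and 2.27 and 2.22 (24 h) (log2 -3.04, SE 0.0630, edgeR adjusted p = 4.75e-20). Dut, the dUTPase, was at -2.13, Clspn (claspin, a replication checkpoint adaptor) at -2.09, and E2f8, a repressor of the E2F family, at -2.25. Slc7a1, a transporter of arginine and lysine, fell from 98.5 ± 32.0 to 19.4 ± 2.15 CPM (log2 -2.29, SE 0.0369). Aunip, whose product binds Aurora A, was at -2.34, Alpl, an alkaline phosphatase, at -2.38 and Glis1, a zinc finger factor, at -2.15. The rule that named them asked for both scalings.

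**Figure D3:**
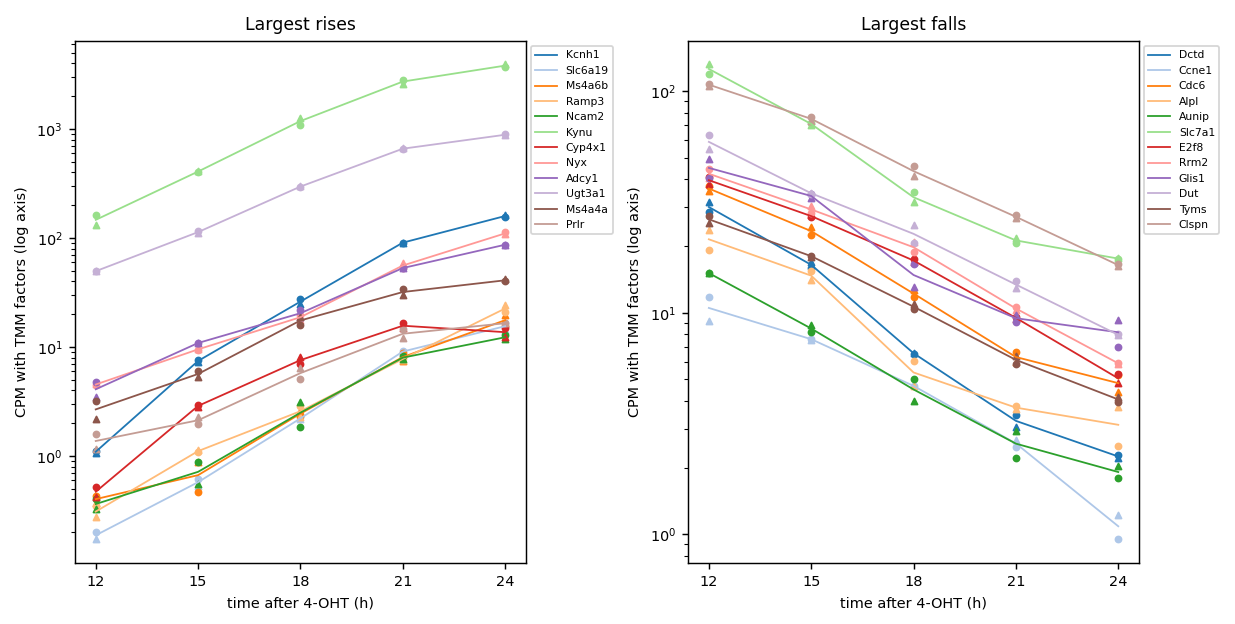
CPM with TMM factors (log axis) at 12, 15, 18, 21 and 24 h of 4-OHT for the 12 largest rises (left) and the 12 largest falls (right). Circles are replicate 1, triangles replicate 2, and lines join the means of 2 replicates; Kynu reaches 3730 and 3920 CPM (24 h) and Dctd falls to 2.27 and 2.22.

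The 12 largest rises were led by Kcnh1 and Slc6a19. Kcnh1, a voltage-gated potassium channel of neurons, was at 1.12 and 1.07 CPM (12 h), 7.57 and 7.35 (15 h), 90.6 and 91.0 (21 h), and 156 and 163 (24 h) (log2 5.39, SE 0.0597, edgeR adjusted p = 4.73e-24). Slc6a19, a transporter of neutral amino acids, went from 0.174 to 0.618 CPM in the earlier libraries to 8.98 to 16.8 in the later ones (log2 5.17, SE 0.136). Both genes were low at 12 h, with as few as 7 counts in a library for Slc6a19. Kynu, kynureninase of tryptophan breakdown, was the most abundant, at 163 and 131 CPM (12 h), 402 and 414 (15 h), 2840 and 2620 (21 h), and 3730 and 3920 (24 h), a 13.2-fold rise (log2 3.72, SE 0.0542, edgeR adjusted p = 5.49e-22). Ugt3a1, a glycosyltransferase, rose from 81.6 ± 36.9 to 774 ± 131 CPM (log2 3.35, SE 0.0265). Receptors were represented by Prlr, for prolactin (1.75 ± 0.488 to 14.9 ± 2.15 CPM, log2 3.11), and Ramp3, an accessory protein of peptide hormone receptors (log2 4.49). The others were Ms4a6b (4.51), Ms4a4a (3.22), the adhesion gene Ncam2 (4.28), the cytochrome Cyp4x1 (3.65), Nyx (3.58) and the adenylyl cyclase Adcy1 (3.35).

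Regulators of B cell identity held 4 rises. Of 28 B cell transcription factor genes, 4 were higher and 0 lower with factors (median 0.43), and 3 were higher and 1 lower with totals (median 0.21) or without the 12 h libraries. Among all genes 4.55% were higher and 6.43% lower with factors, and 2.98% and 9.88% with totals. Bach2, a repressor that restrains plasma cell differentiation, was at 1860 and 1610 CPM (12 h), 2400 and 2440 (15 h), 5390 and 5220 (21 h), and 5500 and 5810 (24 h) (log2 1.42, SE 0.0319, edgeR adjusted p = 1.42e-19). Ets1 went from 683 ± 201 to 1760 ± 28.0 CPM (log2 1.41, SE 0.0377), Zeb2 from 2090 ± 386 to 4540 ± 148 (1.14, called with factors only) and Irf4 from 1.76 ± 0.128 to 4.44 ± 1.19 (1.3). The lineage factors Pax5 (0.82) and Ebf1 (0.41) stayed within 2-fold. Blnk, the adaptor of pre-B cell receptor signalling, was the 1 of 15 genes of that receptor to be called, from 105 and 96.1 CPM (12 h) and 228 and 224 (15 h) to 497 and 502 (21 h) and 528 and 496 (24 h) (log2 1.75, SE 0.0323). Igll1 (1.31 ± 0.247 to 1.03 ± 0.145 CPM) and Vpreb1 (0.463 ± 0.145 to 0.305 ± 0.0761) were low in both windows and were not called. Their log2 changes from 0 to 12 h were -6.81 and -4.96.

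Genes of the FOXO program, which supports quiescence, lay above 0 at the median but mostly within 2-fold. Of 17 tested, 3 were higher and 0 lower (median 0.66), and 12 had all later libraries above the earlier ones, against 23.5% of all genes. With factors 4.55% of all genes were higher and 6.43% lower. Foxo1, which promotes cell cycle exit, was at 3020 and 2730 CPM (12 h), 3720 and 3790 (15 h), 7070 and 6810 (21 h), and 7240 and 7290 (24 h) (log2 1.11, SE 0.0281), and was at 0.89 with totals. Pik3ip1, an inhibitor of PI3 kinase (log2 1.32), and S1pr1, a sphingosine phosphate receptor (1.51), were called with both scalings, and Foxp1 was at 0.98. None of the 17 was called without the 12 h libraries. The CDK inhibitor genes gave no common direction, Cdkn1b (p27) at 0.79, Cdkn2c (p18) at 0.45 and Cdkn1a (p21) lower at -1.14, while the cyclin D2 gene Ccnd2 was lower (12.2 ± 2.16 to 5.65 ± 0.267 CPM, log2 -1.11). Of 16 genes of G1 cyclins and CDK inhibitors 3 were lower and 0 higher, and without the 12 h libraries 0 were lower (Cdkn1a at -0.78 and Ccnd2 at -0.99).

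Cytokine and NF-kB genes held a small number of rises. For all genes the shares were 4.55% higher and 6.43% lower with factors, and 2.98% and 9.88% with totals. The counts of the short lists here were not tested against those shares. Il7r, the IL-7 receptor chain, went from 466 ± 76.8 to 1010 ± 49.8 CPM (log2 1.12, SE 0.0634, 0.90 with totals), and Pim1 and Socs1, targets of cytokine signalling, were at 1.33 and 2.50 (Socs1 at only 1.22 CPM on average over the 8 libraries). These 3 of 12 genes of the list were higher and 0 lower with factors, against 2 higher and 1 lower with totals and 2 higher without the 12 h libraries. Of 13 NF-kB genes, Nfkbia (1.59), Tnfaip3 (1.13) and Relb (1.06) were higher, all with factors and Nfkbia alone of them with totals, where Nfkbid was lower (-1.02), and 1 was higher without the 12 h libraries. Of 6 tested GIMAP genes, which encode GTPases of lymphocyte survival, 4 were higher under both scalings and without the 12 h libraries. Gimap3 (log2 3.68) and Gimap5 (1.41) were among the higher genes with factors and are low, at 1.02 and 0.884 CPM on average over the 8 libraries. Gimap8 was at 22 and 23.7 CPM (12 h), 25.4 and 27.2 (15 h), 70.6 and 66.8 (21 h), and 108 and 114 (24 h) (log2 1.83, SE 0.0386, edgeR adjusted p = 5.73e-20). In the BCL2 family, where 1 of 10 genes was higher and 1 lower (2 lower with totals), Bcl2, which blocks apoptosis, was lower (162 ± 35.8 to 67.3 ± 8.68 CPM, log2 -1.25), and Bmf, which promotes it, was higher (0.299 ± 0.0695 to 2.33 ± 0.655, log2 2.94). Without the 12 h libraries Bcl2 was at -0.97 and no longer called, and Bmf was at 2.77. H2-Ob, which modulates peptide loading on MHC class II, rose from 30.9 ± 9.41 to 125 ± 15.9 CPM (log2 2.06), the 1 of 6 class II genes called.

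Ikzf1 itself (ENSMUSG00000018654, chromosome 11, 11685003 to 11772926) changed little. It was at 8430 and 8210 CPM (12 h), 9430 and 9140 (15 h), 7230 and 7770 (21 h), and 9220 and 8380 (24 h), with overlapping windows (log2 -0.11, SE 0.0270, edgeR adjusted p = 0.000951). Reads of the transduced copy and of the endogenous gene were not told apart, and 2 genes overlap Ikzf1 on the other strand. Ikzf3 (Aiolos), a relative that pairs with Ikaros, fell from 9.67 ± 2.01 to 3.08 ± 0.204 CPM (log2 -1.64, SE 0.0711). None of 15 NuRD subunit genes was called with factors (median -0.20), Mbd2 being the most abundant (673 ± 49.4 to 1090 ± 53.9 CPM, log2 0.70), and with totals 3 were lower. Nor was any of 26 proteasome, 26 sterol synthesis or 39 nuclear-encoded respiratory chain genes called with factors, with medians of -0.155, 0.35 and -0.20. Replication-dependent histone genes were lower in 2 of 49 cases with factors (1 without the 12 h libraries, 1 to 5 with a single library left out) and 12 with totals (medians -0.55 and -0.77).

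A small set of genes gained a large part of the share of counts that others lost. All gains summed to 13.4 points of each 100 counts, of which the 10 genes with the largest gains held 3.09 points and the 100 largest 7.75 points. Malat1 went from 0.564% to 1.12% of counts, Foxp1 from 0.638% to 1.08%, Foxo1 from 0.340% to 0.627%, Bach2 from 0.213% to 0.484% and Kynu from 0.0283% to 0.289%. Pbx3, a homeodomain factor chosen after its values were seen, went from 0.105% to 0.454%, at 834 and 754 CPM (12 h), 1230 and 1280 (15 h), 4910 and 4720 (21 h), and 5560 and 5410 (24 h) (log2 2.36, SE 0.0376). The RNAs of the mitochondrial genome went from 0.533% ± 0.0424 to 0.918% ± 0.127 of counts (exact permutation test, two-sided, p = 0.0286, the smallest possible and shared by most measures, adjusted p = 0.0364), mainly through the ribosomal RNA mt-Rnr2 (log2 1.05 with factors, 0.83 and not called with totals). These are RNAs of another compartment, and their share was higher in all 4 later libraries. Of 9 mitochondrially encoded genes tested, 2 were higher with factors, and 0 without the 12 h libraries. Genes longer than 100 kb took 40.8% to 41.4% of counts at 12 and 15 h and 43.9% to 44.6% at 21 and 24 h, with a median log2 fold change of 0.11, against -0.06 for genes under 10 kb. The 2131 long genes were higher in 6.19% and lower in 4.97% of cases, and the part of gene length in the results was not tested.

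The step was also taken as a pair of 9 h steps that share no library. From 12 to 21 h, 862 genes (5.19%) were higher and 1077 (6.49%) lower, and from 15 to 24 h 586 (3.53%) were higher and 856 (5.16%) lower. The 457 genes higher in both were 53% of the first list and 78.0% of the second, and the 636 lower in both 59.1% and 74.3%. With totals the counts were 538 (3.24%) higher and 1712 (10.3%) lower from 12 to 21 h, and 405 (2.44%) higher and 1306 (7.87%) lower from 15 to 24 h. DNA replication genes were lower in 34 of 42 cases from 12 to 21 h and 29 from 15 to 24 h, mitosis genes in 34 and 37 of 43, and ribosome biogenesis genes in 25 and 15 of 50. The log2 change from 15 to 24 h was called as higher than that from 12 to 21 h in 17 genes (0.102%) and as lower in 56 (0.337%) with factors, and in 16 (0.0964%) and 46 (0.277%) with totals. Car12, carbonic anhydrase 12, rose late, at 16.7 and 17.7 CPM (12 h), 13.9 and 11.8 (15 h), 16.1 and 15.3 (18 h), 49.2 and 51.3 (21 h), and 155 and 157 (24 h), so that its log2 change was higher by 2.06 in the later step (edgeR adjusted p = 1.2e-12). Cyp4x1 rose mainly before 21 h, at 0.517 and 0.424 CPM (12 h), 2.96 and 2.81 (15 h), 16.5 and 14.9 (21 h), and 14.9 and 12.5 (24 h), a difference of -2.81 (edgeR adjusted p = 2.11e-07).

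Single intervals of 3 h called fewer genes. With factors, 63 genes (0.379%) were higher and 56 (0.337%) lower from 12 to 15 h, 122 (0.735%) and 60 (0.361%) from 15 to 18 h, 75 (0.452%) and 33 (0.199%) from 18 to 21 h, and 16 (0.0964%) and 25 (0.151%) from 21 to 24 h. With totals the pairs were 55 (0.331%) and 76 (0.458%), 92 (0.554%) and 91 (0.548%), 57 (0.343%) and 62 (0.373%), and 15 (0.0904%) and 26 (0.157%). The last interval had the fewest calls under both scalings. At 18 h, 95.8% of the 756 higher genes and 94.0% of the 1067 lower ones lay between their levels in the earlier and the later window, at a median of 57.0% and 51.1% of the way. These genes were picked for a gap between the windows on either side of 18 h. A level in between is therefore largely built in. Cdk1 at 18 h was at 61.0 and 61.3 CPM, Cdc6 at 11.8 and 12.6, Bach2 at 3550 and 3650 and Kynu at 1100 and 1270, each between its windows.

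**Figure D4:**
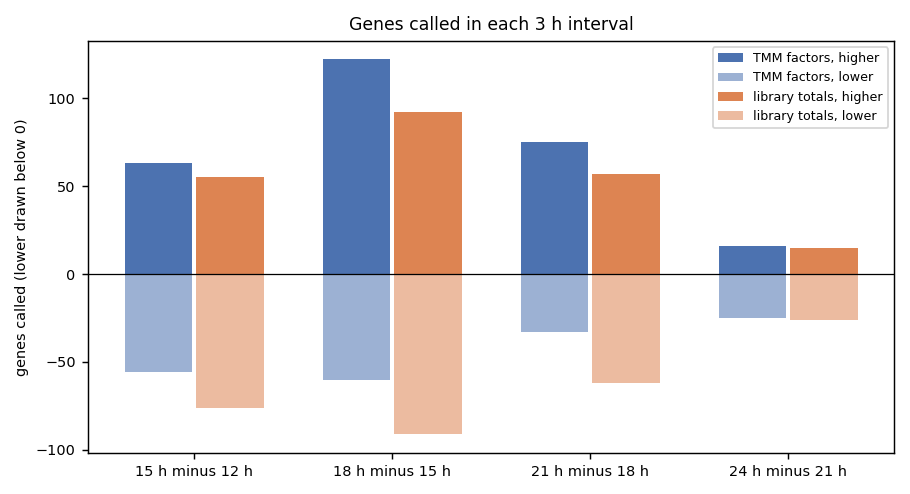
Number of genes called in each 3 h interval (vertical axis, falls drawn below 0), with TMM factors in blue and library totals in orange. With factors the rises go from 63 and 122 to 75 and 16, and in the last interval both scalings call 26 genes or fewer in either direction.

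Mitosis genes had shown little change by 12 h. From 0 to 12 h, compared in libraries that the step from 15 to 24 h does not use, 2187 genes (13.2%) were higher and 1646 (9.92%) lower. Of the 37 mitosis genes lower from 15 to 24 h, 36 had not been lower at 12 h, and the list's median was 0.14 from 0 to 12 h and -1.37 from 15 to 24 h. Of the 29 replication genes lower from 15 to 24 h, 27 had not been lower at 12 h (medians -0.35 and -1.37). Mki67 was at 0.49 from 0 to 12 h and at -1.54 from 15 to 24 h, and E2f2 at 0.40 and -1.86. Of 50 ribosome biogenesis genes, 22 were lower at 12 h with a median of -0.96, and 2 of the 15 lower from 15 to 24 h had not been lower at 12 h. Replication-dependent histone genes were higher at 12 h in 27 of 49 cases (median 1.03), and 9 were lower from 15 to 24 h. Among all genes higher from 15 to 24 h, 38.2% had been higher, 54.4% not called and 7.34% lower at 12 h, and among those lower from 15 to 24 h, 21.0% had been lower, 64.4% not called and 14.6% higher. Irf4 (-2.53 from 0 to 12 h, 1.55 from 15 to 24 h) and Tnfaip3 (-1.84 and 1.19) were lower in the first and higher in the second comparison.

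**Figure D5:**
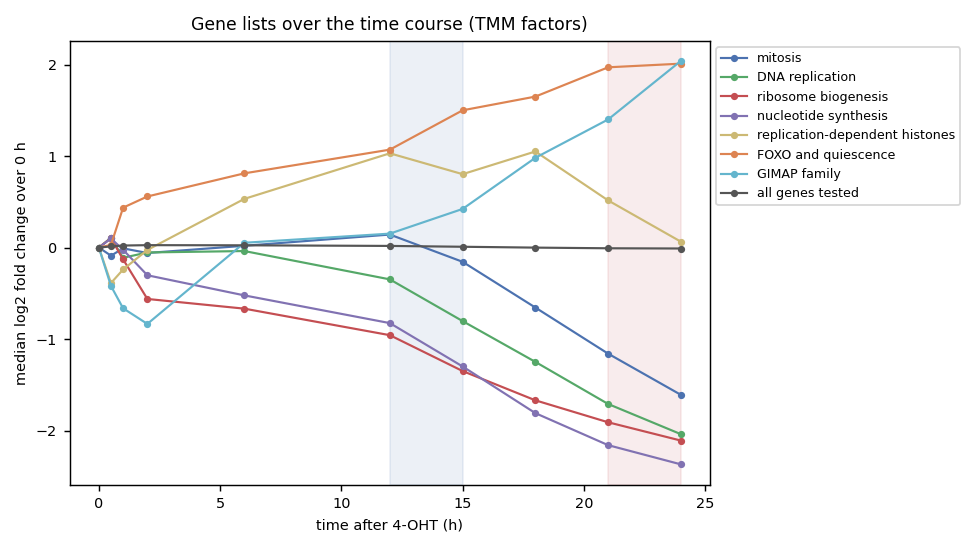
Median log2 fold change over 0 h (vertical axis, TMM factors) of 7 gene lists and of all genes tested at each time point, with the earlier window shaded blue and the later one red. Mitosis genes stand at 0.142 at 12 h and fall afterwards, while ribosome biogenesis genes stand at -0.958 by 12 h.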

How the data were processed

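The authors isolated chromatin-associated RNA, made libraries with a directional, rRNA-depleting kit and processed reads with nf-core/rnaseq 1.3 on GRCm38. Per the labels, CASAVA 2.17 and featureCounts were used. The annotation release, strand setting and treatment of multiply mapped reads are not given in the sources used here. The deposited values are raw counts per gene, introns included, for 56239 genes, of which 55240 (98.2%) matched GENCODE M21.

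The 16601 genes that reached 10 counts in 2 or more of the 20 libraries were fitted in edgeR 4.0.16 (R 4.3.3) with a quasi-likelihood model of 10 time points, and the late step was the mean of 21 and 24 h less that of 12 and 15 h, with TMM factors or library totals. CPM used TMM-scaled totals. Calls needed a Benjamini-Hochberg adjusted p under 0.01 and a fold above 2. The SE of a log2 fold change was derived from the test, as its absolute value over the square root of the F statistic. The fit was tested on simulated data. Genes named are the 12 largest rises and falls called with both scalings at 5 CPM or more with separated windows and no predicted symbol, up to 4 called members of each list, the most abundant genes, Ikzf1, and the largest differences between scalings and between 9 h steps. Other genes named, the motifs and the length classes were chosen after their values were seen. The members and lists were chosen with earlier results of these data known. Alternatives included other scalings, filters, DESeq2 1.42.0, a replicate block and left-out libraries. With 33296158 to 42354512 counts per library, counting error is small except for genes of few counts, and limits from 0 counts cover counting error only.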

Additional observations from a re-analysis of the deposited data

Results flagged for a closer look

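Dixon's test was applied to 314 groups of 4 libraries, each a gene, a share, a library total or a TMM factor in 1 window. For like values chance flags about 1 in 20 groups, but each group joins 2 time points. A library far from the other 3 was found in 6 groups, fewer than that rate gives. These were Alpl at 24 h replicate 1 (2.50 CPM, others 3.66 to 3.8), Fosl1 at 15 h replicate 1 (0.129, others 0.324 to 0.345), Gbp2 at 24 h replicate 1 (9.03, others 7.09 to 7.30), Nolc1 at 21 h replicate 2 (5.70, others 4.47 to 4.59), Vpreb2 at 12 h replicate 1 (0.201, others 0.121 to 0.129) and Vpreb3 at 24 h replicate 1 (5.01, others 5.76 to 5.89).

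The steps from 15 to 24 h and from 12 to 21 h differed, by edgeR's test of the difference itself, in 17 genes with a higher and 56 with a lower value in the later step. Car12 differed by 2.06 (1.55 from 12 to 21 h and 3.61 from 15 to 24 h), Cyp4x1 by -2.81 (5.06 and 2.25), Kcnh1, the potassium channel gene, by -1.95 (6.37 and 4.42) and Blnk by -1.13 (2.31 and 1.18).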

How the results depend on the processing

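Limits. Time since the addition of 4-OHT and time in culture cannot be told apart in these samples. The amount of RNA per cell was not measured, so both scalings give relative levels only. Genes of few counts, such as Slc6a19 at 12 h, have wide errors.

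The late step gave 495 higher and 1640 lower genes with totals, 352 higher under a stricter filter, 4353 and 4456 at any fold, 494 and 1626 with a replicate block and totals, and 708 lower without the 12 h libraries, and 730 to 768 higher and 1008 to 1039 lower with 1 library left out. Totals gave 538 and 1712 from 12 to 21 h, 1306 lower from 15 to 24 h, 91 lower from 15 to 18 h and 62 lower from 18 to 21 h. The stricter filter gave 492 higher from 12 to 21 h, 293 higher from 15 to 24 h, and 21 and 20, 37 and 39, 14 and 15, and 3 and 11 in the 4 intervals of 3 h. DESeq2 gave 26 lower from 12 to 15 h, 68 higher from 15 to 18 h, 42 and 19 from 18 to 21 h, and 5 and 11 from 21 to 24 h. With the 10 most abundant genes out of the denominator, the changes in share of NuRD (0.00114) and BCL2 family genes (7.21e-05) turned sign. The cause was not tested. The stricter filter tests fewer genes.

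The replicate block, without totals, gave 750 higher and 1057 lower genes. The labels do not say whether equal replicate numbers pair the samples. Correlations of replicate deviations had both signs, from -0.263 (12 and 15 h) to 0.493 (12 and 21 h) over 7876 genes, which does not settle it.

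Of 122 named genes called, 122 kept their sign and 86 their call in every alternative run, and 12 of 31 not called changed sign. The called genes were named from these same libraries, most of them for their calls, so a kept sign is largely built in. With totals, totals without the top 10 genes, and the block with totals, values were -0.1173, -0.09474 and -0.1172 for Dennd1a, -0.09921, -0.07662 and -0.099 for Dnajc1, -0.08249, -0.05991 and -0.08232 for Exoc4, -0.1818, -0.1593 and -0.1815 for Gm26917, -0.09868, -0.07612 and -0.09868 for Map2k5, -0.1099, -0.08734 and -0.1099 for Pde4d, -0.1489, -0.1264 and -0.149 for Psmd14, -0.1037, -0.0812 and -0.1038 for Rapgef6, and -0.1495, -0.1274 and -0.1515 for Vpreb2. Gm26917 was at -0.01553 without 12 h, -0.09246 without 24 h and -0.001838 to 0.0792 with 1 library left out. Vpreb2 was at -0.1129 without 15 h, -0.6249 without 24 h and -0.2883 to 0.3489 with 1 library left out. Vpreb3 was at 0.02147 with DESeq2 size factors, 0.06285 with upper quartiles, 0.001359 under the stricter filter, 0.02102 with DESeq2, 0.008506 without 15 h, 0.04056 without 24 h and -0.06624 to 0.05032 with 1 library left out. Rpsa was at 0.001728 without 12 h and Ikzf1 at 0.006482 without 21 h.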

Other observations

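Neighbouring members of a pair of gene clusters lay among the higher genes, described here after their values were seen and without a test. Of 8 tested Ms4a genes on chromosome 19, which encode membrane proteins related to CD20, 5 were higher and 1 lower with either scaling, with a median log2 fold change of 3.23. On chromosome 6, genes named Klra, Klrb, Klrc, Klrd or Klrk were searched for, which encode lectin-like receptors known from natural killer cells. Of the 16 tested, 12 were higher with factors and 11 with totals, 0 were lower, and the median was 1.84. Among all genes tested 4.55% were higher with factors. Many of these genes are low: 4 of the 8 Ms4a and 8 of the 16 Klr genes reached 1 CPM on average at 21 and 24 h, and genes that entered the test through the window where they are high had to differ. At 12 h, against 0 h, 4 of the Ms4a and 7 of the Klr genes were already higher.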
